A study of Zea mays with 58 samples.

Results

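Roots that had been back on nitrogen for 90 min were compared with roots kept without it for the same time, in seedlings of the maize inbred line B73. The comparison uses 6 of the 58 libraries of a time course: 3 of the N group and 3 of the noN group at 90 min, chosen by the medium and the time in their labels and by no measured value. N roots stood in medium with 20 mM KNO3 and 20 mM NH4NO3, in which part of the nitrogen carried a heavy isotope, and noN roots stood in medium with 20 mM KCl. The seedlings of both groups were 10 days old, had lost their endosperm by hand, and had spent 2 days without nitrogen before the transfer. Each library came from 3 pooled seedlings, so the spread below is between pools and not between single plants. The media differ in chloride and in total salt as well as in nitrogen, and these differences cannot be told apart here. Libraries were made by 3' mRNA sequencing, which reads transcripts close to the poly(A) tail and tags every captured molecule, so that copies of 1 molecule count once.

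Plant roots take up nitrate and ammonium through separate families of transporters. Nitrate is reduced to nitrite and then to ammonium, which is built into glutamine and glutamate. Nitrate also acts as a signal: in Arabidopsis, transcription factors move within minutes of its supply and set off further genes, so that genes of uptake and assimilation are followed by slower changes. The gene models of this annotation could not be paired with names here, since 0 of the 44146 identifiers matched the name table at hand. The genes of these pathways, and markers of root and shoot cells, are therefore not analysed here by name, and the results below are given for groups of genes defined by their behaviour, by the authors' network table and by their structure. In whole roots, fewer cells of a type and less RNA per cell cannot be told apart.

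The 6 libraries held 2884278, 3024983 and 3790442 counts in N roots, against 2253580, 2561236 and 2639814 counts in noN roots. N replicate 3 was the largest library of the series (1978039 to 3790442). The mean of 3233000 in N roots was the highest of 19 groups, against 2485000 in noN roots. N roots were the more even group: the median SD over genes of log2 CPM, counts scaled to the size of the library, was 0.186 in N roots, the lowest of 19 groups, and 0.281 in noN roots, which ranked 16. The part of the greater depth of N roots in this was not tested. Correlations of log2 CPM were 0.969 to 0.978 among N libraries, 0.942 to 0.952 among noN libraries and 0.885 to 0.94 between an N and a noN library. The leading principal component, with 57.5% of the variance, set the N libraries (scores of -42.4, -40.1 and -51.7) apart from the noN libraries (21, 49.2 and 64). The next component, with 16.5%, set noN replicate 3 (43.1) apart from noN replicates 1 and 2 (-28.2 and -30.4). The mean log2 exon length per count was 10.989 to 10.992 in N roots and 10.967 to 10.998 in noN roots, so the groups of 90 min were alike in a makeup that differs among some earlier libraries of the series.

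N roots at 90 min had 1432 genes above and 1790 genes below their level in noN roots, by edgeR's quasi-likelihood test with Benjamini-Hochberg adjusted p of 0.05 over 18872 genes. These were 7.59% and 9.48% of the genes tested, and 17.1% in all. The balance depended on the setting. With DESeq2's size factors, edgeR called 1385 genes higher and 1822 lower. When limma was run with the quantile normalized table, it called 1846 higher and 1760 lower. That run differs in test, genes and libraries as well as in scaling, and the part of each was not tested. The median log2 fold change of the higher genes was 0.92 (quartiles 0.66 and 1.5), and that of the lower genes was -0.95 (quartiles -1.56 and -0.68), while the median of all genes was 0. The N and noN libraries did not overlap for 1360 of the higher genes (95%) and 1670 of the lower genes (93.3%), beside 35.1% of all genes tested. Without noN replicate 3 the calls numbered 1635 and without N replicate 3 they numbered 1866. Of the 3222 genes called, 1551 kept their call and direction without noN replicate 3.

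**Figure D1:**
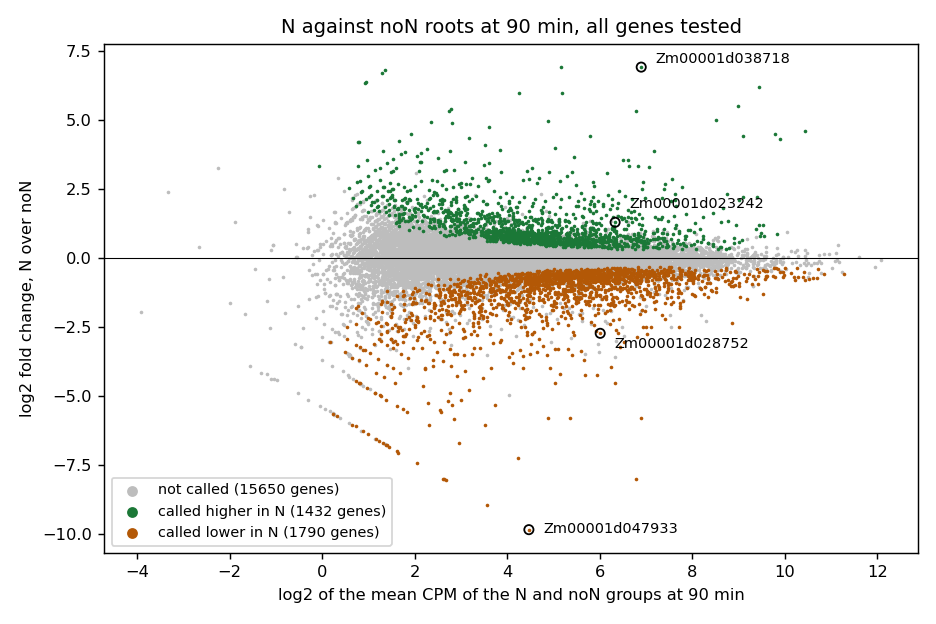
Each point is 1 of 18872 genes, with the log2 of its mean CPM over both groups at 90 min on the x axis and its fitted log2 fold change, N over noN, on the y axis. Coloured points are the 1432 genes called higher and the 1790 called lower in N roots; the circled genes are described by library below, and points on the slanted lines at the lower left are genes at or near 0 in N roots, whose fitted values have no lower limit.

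Changes of at least 1 on the log2 scale were more often decreases, also in limma on the quantile normalized values (737 higher, 860 lower). A log2 fold change of at least 1 was reached by 629 genes higher in N roots (3.33% of the genes tested) and by 847 genes lower in N roots (4.49%). At 3 the numbers were 71 and 128, and at 5 they were 13 and 41. Some of the steepest decreases come from genes with no count in N roots: when the 20 such genes called lower, and the 4 called higher with no count in noN roots, were set at the bound that 3 counts over the group allow, the numbers at 5 became 9 and 26.

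The 629 genes higher by at least 1 (log2) took up a larger share of the root's transcripts in every N library. They held 5.31%, 4.22% and 4.99% of the counts in N roots, against 1.35%, 1.19% and 1.02% in noN roots. The 847 genes lower by at least 1 held 1.92%, 2.11% and 1.86% in N roots, against 4.25%, 5.79% and 5.71% in noN roots. These shares describe the selection at 90 min and are no test of it. The libraries of 60 and 120 min do not enter the fold change at 90 min. All 58 libraries set the filter for low counts and the shared spread, however. With the 6 libraries of 90 min alone, 551 of the 629 and 718 of the 847 genes passed that filter. At 60 min the 629 genes held 3.5 to 4.83% in N roots and 1.54 to 1.72% in noN roots. At 120 min they held 4.51 to 4.83% in N roots and 1.43 to 1.58% in noN roots. The 847 genes held 2.45 to 2.78% in N roots and 3.55 to 3.84% in noN roots at 60 min, and 2.18 to 2.34% in N roots and 4.3 to 4.69% in noN roots at 120 min. The N and noN libraries thus did not overlap at either neighbouring time for either list.

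**Figure D2:**
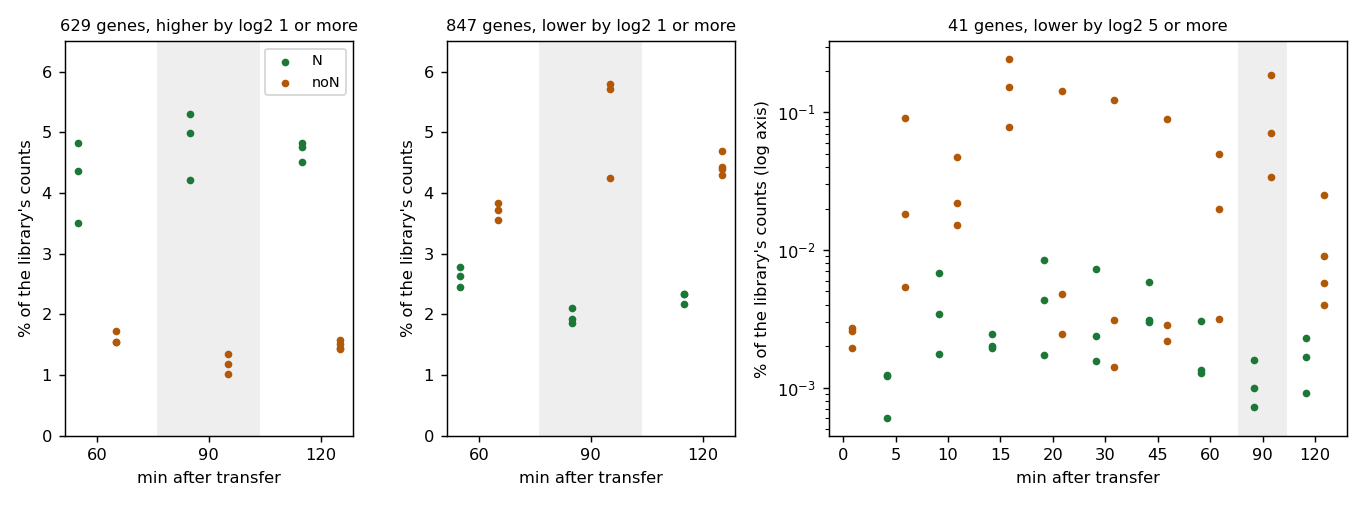
Each point is 1 library (green N, left; orange noN, right) at the times on the x axis, and the y axis gives the share of the library's counts, in percent, held by the 629 genes higher by log2 1 or more at 90 min, the 847 genes lower by 1 or more, and the 41 genes lower by 5 or more (log axis). At 90 min (shaded) the 629 genes hold 4.22 to 5.31% in N and 1.02 to 1.35% in noN roots; the 41 genes scatter widely among noN libraries and stay low in N libraries at all times.

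The 13 genes higher by at least 5 (log2) were a small group that was near 0 in noN roots throughout and in N roots at 5 min. They held 0.369%, 0.259% and 0.311% of the counts in N roots at 90 min, against 0.00852%, 0.00453% and 0.00224% in noN roots. The other N libraries entered the filter and the shared spread but not the fold change at 90 min. In them the 13 genes held 0.00153 to 0.00454% after 5 min, 0.0203 to 0.0282% after 15 min, 0.134 to 0.196% after 30 min, 0.265 to 0.385% after 60 min and 0.192 to 0.239% after 120 min. The noN libraries of the other times did not exceed 0.0176%. Of these 13 genes, 8 (61.5%) are in the authors' network table, beside 12.2% of all genes tested; the table belongs to the same series and is no independent support.

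The gene with the largest increase by a fixed rule (groups not overlapping and a mean of at least 10 CPM in the higher group) was Zm00001d038718. It is annotated on the minus strand of chromosome 6, at 163324435 to 163325813 of the AGPv4 build, with 3 exons, and is a target in the authors' network. It had 304, 153 and 249 CPM in N roots at 90 min, against 1.32, 3.98 and 0.402 CPM in noN roots. Every N library lay far above every noN library. The means were 236 ± 76.4 CPM in N roots and 1.9 ± 1.86 CPM in noN roots (SD, n = 3 each), which is a log2 fold change of 6.90 with an SE of 0.66 (adjusted p = 5.744e-11, edgeR). Its mean in N roots was 0.143 CPM after 5 min, 3.64 CPM after 20 min, 31.4 CPM after 30 min, 84.6 CPM after 60 min and 159 CPM after 120 min. In noN roots its group means stayed between 0.296 and 2.58 CPM over the whole course. Its N effect was 5.47 ± 0.68 at 60 min and 7.09 ± 0.63 at 120 min (log2, SE; adjusted p of 1.059e-07 and 6.495e-12). The steps of the N arm around 90 min did not pass the test (adjusted p = 0.08763 from 60 to 90 min and 0.8853 from 90 to 120 min).

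The 41 genes lower by at least 5 (log2) behaved in another way: they were near 0 in N roots and uneven among noN roots. At 90 min they held 0.000728%, 0.000992% and 0.00158% of the counts in N roots, against 0.0714%, 0.188% and 0.0338% in noN roots. In 32 of the 41 (78%) the highest noN library had at least 4 times the CPM of the lowest. This was seen in 133 of the 1790 lower genes (7.43%). The mean CPM of a gene had a median of 1.86 over the 41 and of 34.4 over the 1790. The part of low counts in the unevenness was not tested. In 32 of the 41 the lowest noN library was replicate 3. Outside 90 min, the N libraries held 0.000603 to 0.00844% of their counts in these genes over 24 libraries. Of 28 noN libraries outside 90 min, 15 exceeded the highest of those N libraries, with a median of 0.0122% and a highest value of 0.243%. Only 11 of the 41 genes passed the filter for low counts with the 6 libraries of 90 min alone, and 18 with those of 60 to 120 min. Most thus passed it with libraries of other times, so high noN values there are in part a condition of the list. They are no outside reading of it. The 15 libraries were all 3 noN libraries at 10 and at 15 min, 2 of 3 at 5 and at 60 min, 1 of 3 at 20, 30 and 45 min, and 2 of 4 at 120 min. At 15 min the noN libraries had 0.154%, 0.0779% and 0.243%, and at 30 min noN replicate 2 had 0.124%, against 0.00142% and 0.0031% in the other two. Across those 28 noN libraries the genes went up and down together, with a median pairwise correlation of log2 CPM of 0.772, a description of genes chosen together that share libraries, depth and many values of 0. Many of these calls were lost with 1 library left out, which also leaves the test fewer replicates. Of the 41, 19, 17 and 16 remained without N replicates 1, 2 and 3. Without noN replicates 1, 2 and 3, 32, 23 and 36 remained. DESeq2's Wald test called 26 of the 41 lower. With the 6 libraries of 90 min alone, 10 of the 11 genes that could be tested were called lower, and the rest of the 41 could not be tested.

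The largest decrease by the same rule was that of Zm00001d047933, on the plus strand of chromosome 9 at 145669272 to 145670568 (AGPv4), with 2 exons and no place in the network table. It had 0 counts in each of the 3 N libraries, against 208, 100 and 3 counts (91.6, 39.8 and 1.2 CPM) in noN roots. The decrease was at least 143-fold against a floor of 3 counts over the N group (edgeR adjusted p = 0.004422). Within noN roots, replicate 3 was close to the N libraries. The same gene was uneven in noN roots at other times, with 31.7, 13.9 and 66.3 CPM at 15 min, 0, 96.8 and 0 CPM at 30 min and 45.2, 0 and 0.63 CPM at 45 min, while its N libraries did not pass 1.96 CPM at any time. At 120 min its noN libraries had 1.35, 0.373, 0 and 0 CPM.

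The N effect was called for fewer genes at 60 min than at 90 or 120 min. It was called for 471 genes higher (2.5%) and 300 lower (1.59%) at 60 min, and for 1144 higher (6.06%) and 1474 lower (7.81%) at 120 min, in libraries other than those of 90 min, with 4 noN libraries at 120 min and 3 in the other groups. Of the 1432 genes higher at 90 min, 272 (19%) were also called higher at 60 min, which is 57.7% of the higher calls of 60 min, and 562 (39.2%) at 120 min, which is 49.1% of the higher calls there. Of the 1790 genes lower at 90 min, 169 (9.44%) were called lower at 60 min, 56.3% of the lower calls of 60 min, and 739 (41.3%) at 120 min, 50.1% of the lower calls of 120 min. Calls in the opposite direction were few: 2 and 1 of the higher genes, and 2 and 3 of the lower genes, at 60 and 120 min. At all 3 times, 209 genes were called higher and 121 lower.

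The effect was of the same direction well beyond the genes called. Of the 1432 higher genes, 1189 (83%) had a positive N effect at 60 min and 1311 (91.6%) at 120 min, with median log2 fold changes of 0.33 and 0.51. Of the 1790 lower genes, 281 (15.7%) were positive at 60 min and 99 (5.53%) at 120 min, with medians of -0.34 and -0.62. The value at 90 min is larger in part because the genes were selected there. Genes selected at 120 min instead give a reading of 60 and 90 min free of that: the 1144 higher genes of 120 min had a median of 0.43 at 60 min and 0.64 at 90 min, and the 1474 lower genes had -0.39 at 60 min and -0.69 at 90 min. Genes selected at 60 min had medians of 0.71 (471 higher genes) and -0.76 (300 lower genes) at 90 min and of 0.65 and -0.71 at 120 min. Read in this way, the effect was larger at 90 than at 60 min and close to that of 120 min, as medians with no test of their own.

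At 90 min the N and noN levels of the larger changes lay on opposite sides of each gene's mean. The 629 genes higher by at least 1 (log2) had a median level, relative to each gene's mean over all libraries, of 0.37, 0.87 and 0.75 in N roots after 60, 90 and 120 min, and of -0.24, -0.54 and -0.19 in noN roots. The 847 genes lower by at least 1 had -0.28, -0.54 and -0.44 in N roots, and 0.26, 0.92 and 0.42 in noN roots. For the lower genes, therefore, the noN arm moved farther from 60 to 90 min than the N arm did, and came back in part by 120 min. Since the genes were chosen at 90 min, part of that excursion comes from the choice.

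**Figure D3:**
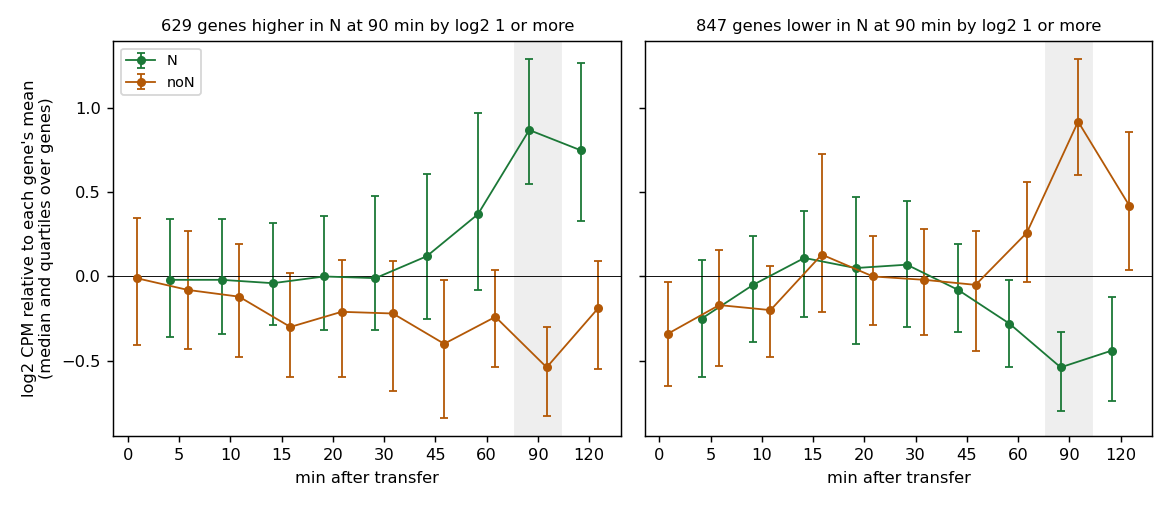
Points are medians and bars are quartiles, over the 629 genes higher (left panel) and the 847 genes lower (right panel) in N roots at 90 min by log2 1 or more, of log2 CPM relative to each gene's mean over all libraries; green is N, orange is noN, and the times on the x axis are evenly spaced. At 60, 90 and 120 min the medians of N and noN lie on opposite sides of 0, and at 90 min (shaded) they are 0.87 in N and -0.54 in noN roots for the higher genes, and -0.54 in N and 0.92 in noN roots for the lower genes.

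Within each arm, few single genes passed the test between neighbouring times. In N roots, 67 genes were higher and 106 lower at 90 than at 60 min (0.917% in all), and 10 genes were above and 10 below that level at 120 min (0.106%). In noN roots, 59 were higher and 31 lower at 90 than at 60 min (0.477%), while from 90 to 120 min 91 genes went up and 109 down (1.06%). With the authors' quantile normalized values in limma, the split of noN roots at 90 against 60 min turned to 77 higher and 101 lower. These counts changed with 1 library left out, which also leaves the test fewer replicates. Without noN replicate 3 the noN arm gave 20 calls against 60 min and 13 between 120 and 90 min. It gave 37 and 60 without noN replicate 2, and 213 and 221 without noN replicate 1. In the N arm the counts against 60 min were 72, 67 and 30 without N replicates 1, 2 and 3. Between 120 and 90 min they were 1 to 12, lowest without N replicate 1. Against N roots at 5 min, the N arm had 1990 genes higher and 2048 lower at 90 min (21.4%). Of the 1432 genes higher at 90 min, 518 were higher and 46 lower in N roots at 120 than at 5 min, a comparison that uses no library of 90 min, beside 12% and 11.6% of all genes tested. Of the 1790 lower genes, 122 were higher and 453 lower in it.

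Before 60 min the genes lower at 90 min, taken as a whole, were called higher in N more often than lower, which did not hold for the larger changes at 15 min. Of these 1790 genes, 355 were called higher and 11 lower in N roots at 10 min, beside 7.56% and 4.18% of all genes tested, and 446 higher and 80 lower at 30 min, beside 12.2% and 7.93%. Of the 847 genes lower by at least 1 (log2), the calls at 10 min were 83 higher with 3 lower, and those at 15 min 135 higher with 142 lower, beside 14.7% and 12.5% of all genes tested. The 1432 genes higher at 90 min were split at 10 min, with 122 higher and 124 lower. At that time the 629 higher by at least 1 (log2) had 82 higher and 14 lower. The 1432 were mostly higher at 45 min, with 392 higher and 128 lower beside 13.4% and 10.2%. The noN libraries of 0 to 45 min differ from all others in makeup, with more counts on long genes. The part of that makeup in these early values was not tested.

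The effect at 90 min was itself compared with those at 60 and 120 min. The N effect at 90 min differed from the mean of the effects at 60 and 120 min for 37 genes (0.196%), 12 of them with a more positive and 25 with a more negative effect at 90 min, and 2097 genes had an unadjusted p under 0.05. It differed from that at 60 min for 64 genes (0.339%), 16 more positive and 48 more negative. With the quantile normalized values in limma that split was 61 and 70. The effect at 120 min differed from that at 90 min for 5 genes (0.0265%), 3 more positive and 2 more negative, and for 5 and 2 with the gene length trend removed. Of the 1810 genes called at 90 min and not in the same direction at 60 or 120 min, 23 (1.27%) passed the test of a difference. That test has less power than the test at 1 time: on simulated data it recovered 2.99% of differences of 1.5-fold, 22.4% at 2-fold and 80.3% at 4-fold (67, 67 and 66 genes), so the other genes are not shown to respond alike at the 3 times. The 37 became 1 without noN replicate 2, 7 without N replicate 3, 11 without noN replicate 3, 15 and 19 without N replicates 1 and 2, and 83 without noN replicate 1. The 64 became 31 without noN replicate 3, 35 without N replicate 3, 41 without noN replicate 2 and 210 without noN replicate 1.

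Of the 25 genes with a more negative effect at 90 min, 23 were called lower in N at that time, and the arms shared the change. In noN roots 13 of them were higher at 90 than at 60 min and 13 were lower at 120 than at 90 min, whereas in N roots 8 were lower at 90 than at 60 min. Among the 12 with a more positive effect, 10 were called higher in N at 90 min. In noN roots 4 of them were lower at 90 than at 60 min and 7 were higher at 120 than at 90 min, and in N roots 3 were higher at 90 than at 60 min. All these comparisons use the libraries of 90 min, so they describe the same values from several sides.

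Zm00001d028752, the gene among the decreases whose effect at 90 min differed most clearly from the neighbouring times, showed an early pulse in N and its highest noN mean at 90 min. It lies on the plus strand of chromosome 1 at 45537884 to 45539961 (AGPv4), has 3 exons and is a regulator in the authors' network. At 90 min it had 17.5, 16.5 and 16.1 CPM in N roots, against 37.4, 185 and 112 CPM in noN roots. All N libraries lay below all noN libraries, and the noN libraries differed among themselves. The means were 16.7 ± 0.723 CPM in N and 112 ± 73.9 CPM in noN roots (SD, n = 3 each), and the log2 fold change was -2.74 with an SE of 0.39 (adjusted p = 1.76e-06, edgeR). Its mean in N roots was 14.4 CPM after 5 min, 94.3 CPM after 10 min, 257 CPM after 20 min, 278 CPM after 30 min, 129 CPM after 45 min and 54.9 CPM after 60 min, so that by 90 min it was near its level of 5 min. In noN roots its mean was 15.3 CPM at time 0, 47.3 CPM after 15 min, 48.7 CPM after 20 min and 20 CPM after 45 min. It was then 23 CPM after 60 min, 112 CPM after 90 min and 36.4 CPM after 120 min. At 90 min noN replicate 1, with 37.4 CPM, lay below the noN means of 15 and 20 min. Both steps of the noN mean around 90 min passed the test (log2 changes of 2.28 and -1.61, adjusted p of 0.0008932 and 0.01592). Its N effect (log2) was 3.19 at 30 min, then 1.26 at 60 min (adjusted p = 0.06173) and -1.41 at 120 min (adjusted p = 0.0127). The difference of 90 min from the mean of 60 and 120 min was -2.67 ± 0.48 (log2, SE; adjusted p = 0.005577). It rested on noN replicate 2, the library with 185 CPM: without it the difference was -2.09 (adjusted p = 0.06096), and the noN steps were 1.70 before 90 min (adjusted p = 0.05356) and -1.03 after it (adjusted p = 0.1617). The step after 90 min also missed the threshold without noN replicate 3 (adjusted p = 0.07874) and with limma on the quantile normalized values (adjusted p = 0.07246).

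Zm00001d023242, which the same rule picked among the increases, had a positive N effect at 90 min and a negative one at all other times. The effect was not called at 5 min (-0.36) or at 60 min. It lies on the minus strand of chromosome 10 at 1292263 to 1294372 (AGPv4), has 3 exons and is also a regulator in the network. It had 115, 120 and 106 CPM in N roots at 90 min, against 53.3, 49.7 and 37.7 CPM in noN roots. The groups did not overlap, with means of 114 ± 7.07 CPM in N and 46.9 ± 8.13 CPM in noN roots (SD, n = 3 each), and the log2 fold change was 1.28 with an SE of 0.27 (adjusted p = 0.0008605, edgeR). At 60 min the means were 74.7 CPM in N and 119 CPM in noN roots, and at 120 min 54 CPM in N and 91.5 ± 52.8 CPM in noN roots (SD, n = 4). The groups overlapped at 120 min, with 51.1, 55.2 and 55.8 CPM in N and 53.3, 83.9, 168 and 60.5 CPM in noN roots. The N effect was -0.67 at 60 min (adjusted p = 0.1696) and -0.77 at 120 min (adjusted p = 0.03517), and it was called lower at 10, 15, 20, 30 and 45 min too, the lowest value being -1.86 at 20 min. The difference of 90 min from its neighbours was 1.99 ± 0.33 (log2, SE; adjusted p = 0.004501). The noN arm was lower at 90 than at 60 min by this test (log2 change of -1.34, adjusted p = 0.008509) and higher at 120 than at 90 min (0.97, adjusted p = 0.04833), whereas the steps of the N arm did not pass it (0.60 and -1.07, adjusted p of 0.2901 and 0.1172). The noN step before 90 min missed the threshold without noN replicate 3 (adjusted p = 0.1261). The step after it missed the threshold without any 1 of the 3 noN libraries of 90 min (adjusted p of 0.0584 to 0.2391) and with limma on the quantile normalized values (adjusted p = 0.06046). The difference from the neighbouring times stayed called, at 1.86 to 2.09, without any 1 library of 90 min. It was not tested without the noN library of 120 min that had 168 CPM.

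**Figure D4:**
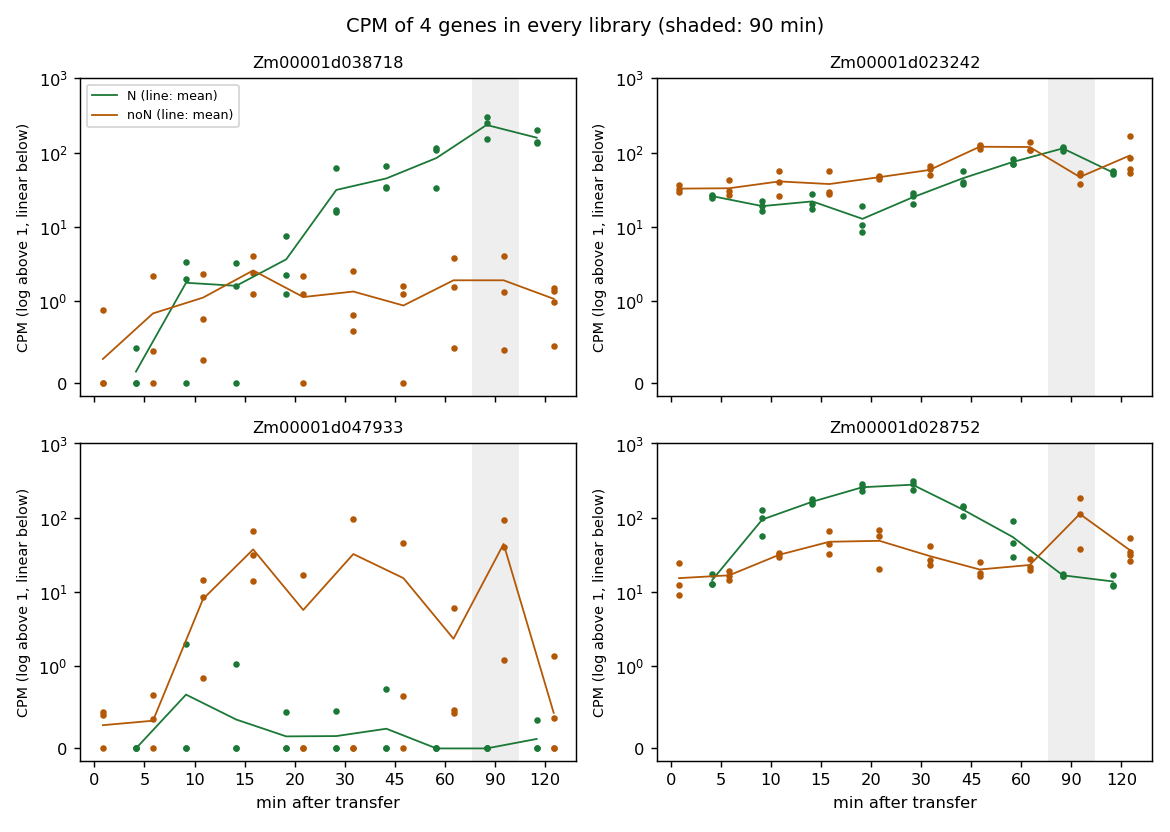
Each panel gives the CPM of 1 gene in every library (points) with the group mean (line), N in green on the left and noN in orange on the right of each time; the y axis is logarithmic above 1 CPM and linear below, and the times on the x axis are evenly spaced. At 90 min (shaded) the N points lie above the noN points for Zm00001d038718 (153 to 304 against 0.402 to 3.98 CPM) and Zm00001d023242 (106 to 120 against 37.7 to 53.3 CPM), and below them for Zm00001d047933 and Zm00001d028752.

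Regulators were called more often than genes in general, and mostly as lower. The authors' network table scores 196 regulators and 2294 targets, and, as part of the same series, it is not taken as independent of these libraries. Of the 196 regulators, 34 (17.3%) were called higher and 90 (45.9%) lower in N roots at 90 min, with a median log2 fold change of -0.57 and a range of -5.33 to 6.33. The counts were 33 higher with 18 lower at 60 min (median -0.2), and 35 higher with 76 lower at 120 min (median -0.46). The number of higher regulators was thus close at the 3 times, while that of lower regulators was 18, then 90, then 76. Over all genes tested, higher calls were 2.5%, 7.59% and 6.06% at these times, and lower calls 1.59%, 9.48% and 7.81%. The rise in lower regulators thus ran beside a rise in all lower calls, whereas higher regulators stayed close in number as all higher calls rose. From 60 to 90 min the median log2 change of a regulator was -0.19 in N roots and 0.15 in noN roots. In 4 sets of 49 regulators, ordered by summed outgoing weight from high to low, 22, 16, 26 and 26 were lower.

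Targets that are not regulators were called more evenly. Of 2098 such targets, 473 (22.5%) were higher and 619 (29.5%) lower, with a median of 0, against 925 (5.58%) higher and 1081 (6.52%) lower of the 16578 genes outside the network. The balance changed with the mean weight of a target's incoming edges: among the 525 targets with the highest weights 83 were higher and 206 lower (median -0.31), and among the 525 with the lowest 175 were higher and 95 lower (median 0.33). Without noN replicate 3, 303 targets were higher and 395 lower.

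Genes with 1 exon had a positive median effect, and non-coding RNA genes had one at 90 min but not at 60 or 120 min. Of 1604 genes with 1 exon, non-coding genes left out, 243 (15.1%) were higher and 116 (7.23%) lower in N roots, with a median log2 fold change of 0.33, and the medians at 60 and 120 min were 0.18 and 0.3. Single-exon genes made up 34.3% of the 629 genes higher by at least 1 (log2), 11.6% of the 847 lower ones and 9.14% of all genes tested. Without noN replicate 3 there were 108 higher and 70 lower, without N replicate 3 there were 136 and 70, and without noN replicate 2 there were 147 higher. Of the 120 non-coding RNA genes (identifiers starting with ENSRNA), 12 (10%) were called higher at 90 min, close to the 7.59% of all genes tested. Their median was 0.57 at 90 min, beside -0.3 at 60 min and -0.52 at 120 min with 16 called lower. At 90 min edgeR called 0 of them lower, with 2 at an unadjusted p under 0.05 and a negative change, and limma on the quantile normalized values called 1. They held 0.192 to 0.2% of the counts in N roots and 0.114 to 0.153% in noN roots at 90 min, and 0.142 to 0.175% in N roots and 0.165 to 0.278% in noN roots at 120 min. The step was mainly in the noN arm, whose median for these genes was -0.62 (log2) from 60 to 90 min and 0.77 from 90 to 120 min, against 0.21 and -0.3 in the N arm. With each library's length trend removed, the median at 90 min was 0.02, with 3 called higher and 4 lower. These genes are short, with a median exon length of 160 bases beside 2062 bases over all genes tested, so that setting can remove a change of the class itself, and length and class cannot be told apart here. The single-exon genes kept a median of 0.29 under it. The higher calls were 4 without noN replicate 3 and 5 without N replicate 3.

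**Figure D5:**
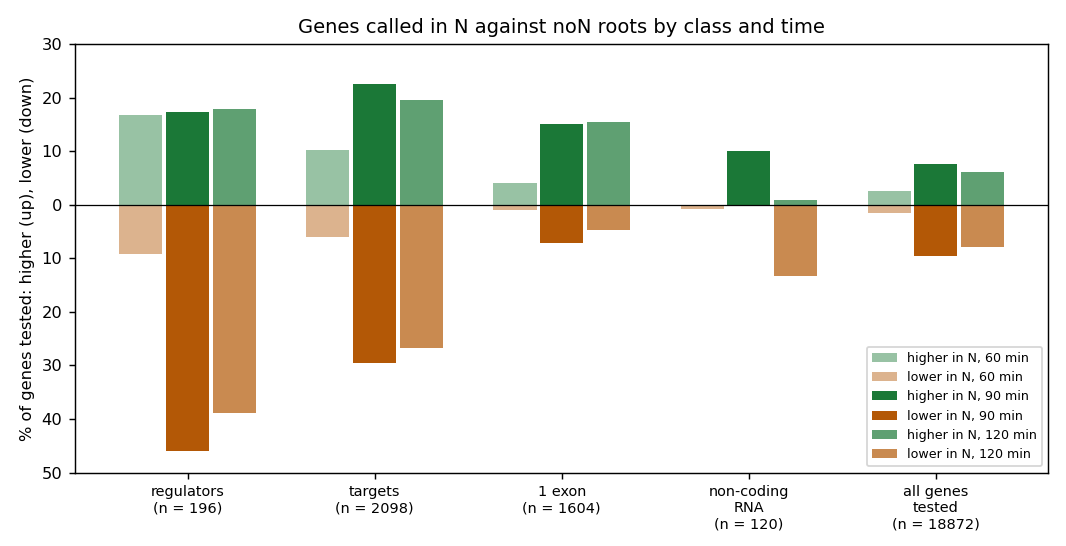
Bars give the percentage of genes tested in each class that were called higher (upward, green) or lower (downward, orange) in N roots at 60, 90 and 120 min, from left to right, with all genes tested at the far right. At 90 min 45.9% of regulators and 29.5% of the other targets were lower, beside 9.48% of all genes, and 10% of the non-coding RNA genes were higher, beside 7.59% of all genes.

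In the fifth of genes with the highest mean CPM, 287 were higher and 577 (15.3%) lower, an excess of decreases that limma on the quantile normalized values did not show, with 492 higher and 483 lower. Without noN replicate 3 there were 163 higher and 266 lower, and without N replicate 3 there were 197 and 317. By edgeR, in the fifth with the lowest mean CPM, where counts give the least precision, 228 were higher and 245 lower. On simulated data of the same design, the test recovered 8.96% of changed genes at 1.5-fold (67 genes), 44.8% at 2-fold (67 genes) and 89.4% at 4-fold (66 genes). Small changes were thus recovered least. Only these genes were changed there, far fewer than the 3222 called at 90 min, which makes the adjusted threshold stricter than in the data. The shares can therefore be too low for the test at 90 min. The simulation also gave each gene the spread usual at its abundance, alike in all groups, which can make the shares too high. Calls were spread over the 10 chromosomes, with 6.62 to 9.03% of the genes of a chromosome higher and 8.33 to 10.4% lower.

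Of 8948 pairs of adjacent genes that were both tested, both were higher in 86 and both lower in 94, and 91 pairs went in opposite directions. After a higher gene, the next was higher in 12.1% of cases on either strand, beside 7.92% of the genes in these pairs, in 15% where both lay on the same strand, beside 8.23%, and in 9.08% where they lay on opposite strands, beside 7.62%. After a lower gene, the next was lower in 11.1%, beside 9.47%. Reads of near-identical neighbouring copies could be shared between them, and the part of that in these pairs was not tested. Runs of 3 or more adjacent genes called in 1 direction numbered 17 for higher and 13 for lower genes, and the longest had 4 genes. A compact example is a run of 3 genes on 1 strand of chromosome 2, at 6886753 to 6893936 (AGPv4), with log2 fold changes of 2.28 to 2.88; it was singled out after its values were seen.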

How the data were processed

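The submitters' processing notes name STAR 2.7.6a, UMI-tools 1.1.1, featureCounts 2.0.1 and fastp 0.21.0. The main deposited table gives each gene's counts as whole numbers, per the file headers taken on the sense strand over exons of the AGPv4 annotation, release 37; the recorded command does not set the option for reads with several alignments, so near-identical copies can lose reads or share them unevenly. The authors' second deposited table holds a quantile normalized score for 18616 genes in 57 libraries, and their deposited network table holds a weight, a score, for pairs of regulator and target; the origin of the weights is not stated in the labels or headers. Per the labels' protocols, shoots and roots of 3 seedlings were combined per replicate and each library is labelled root, which could not be checked by named markers.

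The counts were used as deposited, in 1 model over all 58 libraries and 19 groups (edgeR 4.0.16, R 4.3.3): filterByExpr (minimum count 10, minimum total 15) kept 18872 genes with 99.7% of the counts, TMM scaled the libraries, and the quasi-likelihood test had 39 residual degrees of freedom. CPM are TMM-scaled; relative log2 levels used a prior count of 3. Alternatives used DESeq2 1.42.0 and limma 3.58.1 (log2 of value plus 1 or 10). The test was tried on simulated data. For genes at 0, 3 counts over the group is the floor, which covers counting error only.

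Groups come from the labels, and p-values measure the spread between pools of seedlings. The part of the series, its lists and its tests were chosen with earlier results of these data known. Named genes follow a rule: per direction, the largest fold change, and the smallest p for a larger effect at 90 than at 60 and 120 min among genes called, (at least 1 in log2 for the second pick), libraries not overlapping and at least 10 CPM in the higher group. The N arm at 60 and 120 against 5 min, the genes selected at 60 or 120 min and the bounds for genes at 0 were added after seeing the data. Gene lists by name (12 of them) had 0 members and were not analysed.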

Additional observations from a re-analysis of the deposited data

Results flagged for a closer look

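The N effect at 90 min differed from that at 60 min for 64 genes, that at 120 min from that at 90 min for 5 genes, and that at 90 min from the mean of 60 and 120 min for 37 genes, each by edgeR's test of the difference. Zm00001d023242 had a difference of 1.99 (log2) between its effect at 90 min and the mean of those at 60 and 120 min, with the effect positive at 90 min and negative at both neighbouring times. Zm00001d028752 had a difference of -2.67 (log2), with its effect positive at 60 min and negative at 90 and 120 min; without noN replicate 2 the difference was -2.09 and was no longer called (edgeR adjusted p = 0.06096).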

How the results depend on the processing

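Of 12 alternatives that kept all libraries of 90 min, 11 gave 2439 to 3688 genes called at 90 min, among them limma on the quantile normalized values with 3606 (1846 higher, 1760 lower), 3299 (1696, 1603) and 3688 (1872, 1816), where the excess of lower calls turned, DESeq2's Wald test with 3171 and DESeq2's size factors in edgeR with 3207. The exception was the replicate block in the 6 libraries of 90 min alone, with 1472 calls (521 higher, 951 lower); with the block within time over all libraries there were 3254. The labels do not state that samples with the same replicate number were paired. Their deviations from the group means correlated at -0.152, -0.061 and -0.142, which so few libraries cannot settle. The block is therefore not read as a paired test. With limma on the quantile normalized values, the effects at 90 and 60 min differed for 131 genes and those at 120 and 90 min for 8, noN roots at 90 against 60 min gave 178, and 1 non-coding RNA gene was lower. Removing the gene length trend left 3 non-coding RNA genes higher and 4 lower. With 1 library of 90 min left out, the calls at 90 min numbered 1635 to 3397, the differences of 90 from 60 min 31 to 210, of 120 from 90 min 0 to 12, and of 90 min from the mean of both 1 to 83. The count of 0 came without noN replicate 3 by edgeR's test, with 1265 genes at an unadjusted p under 0.05; no other tool was run on it. The N arm gave 30 to 72 calls between 60 and 90 min and 1 to 12 between 90 and 120 min, and the noN arm 20 to 213 and 13 to 221. By class, the higher calls were 303 to 439 targets, 108 to 288 single-exon genes and 4 to 11 non-coding RNA genes, and the lower calls 395 to 589 targets and 70 to 118 single-exon genes. The cause of each shift was not tested. The N effect at 90 min of the 4 genes named kept its direction and its call under every alternative in which it was tested, which does not hold for the difference of Zm00001d028752 from 60 and 120 min (-2.09, adjusted p = 0.06096 by edgeR, without noN replicate 2); Zm00001d047933 could not be tested in the fits of 90 min alone. In the simulation, far fewer genes were changed than were called here, and the spread was alike in all groups. The test at 90 min recovered 8.96% of changes of 1.5-fold there.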
